A study of Mus musculus with 12 samples.

Results

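The genes described here are 10 genes that are switched on by, or feed back on, the ERK pathway, measured in the sciatic nerve of the mouse: Dusp4, Dusp5, Dusp6, Dusp15, Spry1, Spry2, Spry4, Spred1, Etv4 and Etv5. They were chosen by symbol from the deposited counts, where each stood on 1 of 38087 lines, and all 10 were among the 22384 gene models tested. RNA was sequenced in 12 libraries, 3 in each of 4 groups. Control mice were Dhh-Cre-:Tfebflox/flox;Tfe3+ and dKO mice were Dhh-Cre+:Tfebflox/flox;Tfe3KO. The floxed Tfeb alleles were thus shared by both genotypes. In dKO mice they were to be deleted only in cells in which the Dhh promoter had driven Cre, mainly Schwann cells and their precursors, and Tfe3KO came in addition. Nerve was either intact, taken from the side opposite the injury with the epineurium (the outer sheath) removed, or the distal stump 5 days after transection, for which no such removal is stated. Coordinates are given for 9 of the 10 genes (GRCm38, GENCODE M21, whole gene), with Dusp15 and Spred1 on the same chromosome: Dusp4 at chr8:34807297-34819894, Dusp5 at chr19:53529109-53542431, Dusp6 at chr10:99263231-99267489, Dusp15 at chr2:152940997-152951698, Spry1 at chr3:37639947-37644598, Spry2 at chr14:105891947-105896819, Spred1 at chr2:117121374-117182279, Etv4 at chr11:101769742-101785371 and Etv5 at chr16:22381309-22439719. No label used here gives age or strain, or says whether a library came from 1 mouse.

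In the ERK pathway a growth factor receptor activates RAS, which passes the signal through the kinases RAF, MEK and ERK to transcription factors in the nucleus. ERK then induces its own inhibitors: DUSP phosphatases remove phosphate from ERK, and Sprouty and SPRED proteins restrain the steps above it. Their transcripts and those of the ETS factors Etv4 and Etv5 are therefore often read as a sign of recent ERK activity. In Schwann cells, ERK signalling is known to drive the loss of the myelinating state after injury.

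Levels are given as CPM, a gene's share of the counts of its library after scaling, with mean ± SD over 3 libraries. A change or difference is a log2 fold change, with SE for its standard error, and every adjusted p is from edgeR's quasi-likelihood test with Benjamini-Hochberg adjustment over all 22384 models, with a threshold of 0.05. Libraries held 15430999 to 35845371 counts. In intact nerve Tfeb ranged over 22.6 to 26.9 CPM in control and 17.0 to 19.5 CPM in dKO libraries, and Tfe3 over 56.6 to 62.0 and 43.3 to 47.3 CPM. At 5 days the ranges were 18.2 to 24.0 and 14.2 to 29.7 CPM for Tfeb, and 54.9 to 67.6 and 49.5 to 53.8 CPM for Tfe3. Neither gene passed the test between genotypes in either state, and counts over a whole gene do not show whether an exon was deleted. Control replicate 1 at 5 days, called female below, had 10712 counts of Xist, against 0 to 23 in the other libraries. It also had 244 counts of Y-linked genes, against 1907 to 3724 in the others. A second library set held, among those at 5 days, control replicate 4 and the 3 of dKO nerve. At equal depth these 4 had a read on 174 to 366 olfactory receptor models, against 54 to 74 in the other 8. Comparisons of dKO nerve at 5 days are therefore also given with a term for that set. Where injured dKO nerve is compared with injured control nerve, the term sets the dKO libraries against control replicate 4 alone. In the injury change of dKO nerve it instead takes off the offset of that 1 library from control replicates 1 and 2 at 5 days. Myelin and Schwann cell markers were read in every library, with 0 of their 18 genes at 0 counts.

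The 10 genes were spread over a wide range in intact control nerve. Per kilobase of exon, Dusp15 stood at 271 ± 42.2 CPM, far above the rest. Spry2 (15.9 ± 2.10), Spry1 (12.8 ± 6.20) and Dusp6 (12 ± 1.21 CPM per kilobase) followed. Spry2 did not overlap with Dusp6 over the libraries, while Spry1 overlapped with both and with Spred1 (9.47 ± 0.784), Etv4 (6.97 ± 0.981) and Spry4. Spry4 (5.40 ± 0.560) overlapped with Etv4 above it and with Dusp4 (4.78 ± 0.737) and Etv5 (4.55 ± 0.896) below it. Dusp5 was lowest at 0.663 ± 0.0793, clear of all others. At 5 days in control nerve Dusp15 had become the lowest of the 10 by mean, at 5.18 ± 0.809 CPM per kilobase, and it overlapped with Spry4 (5.92 ± 0.252) and Etv5 (6.48 ± 0.833). Dusp5 had reached 12.8 ± 1.74, which overlapped with Etv4 (14.4 ± 3.12) and Spred1 (15.2 ± 1.71), and Spry2 was highest at 24.9 ± 3.43. In dKO nerve at 5 days Dusp4 was lowest at 4.01 ± 0.777 CPM per kilobase, clear of the rest, and Dusp15 stood at 9.59 ± 1.23.

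**Figure D1:**
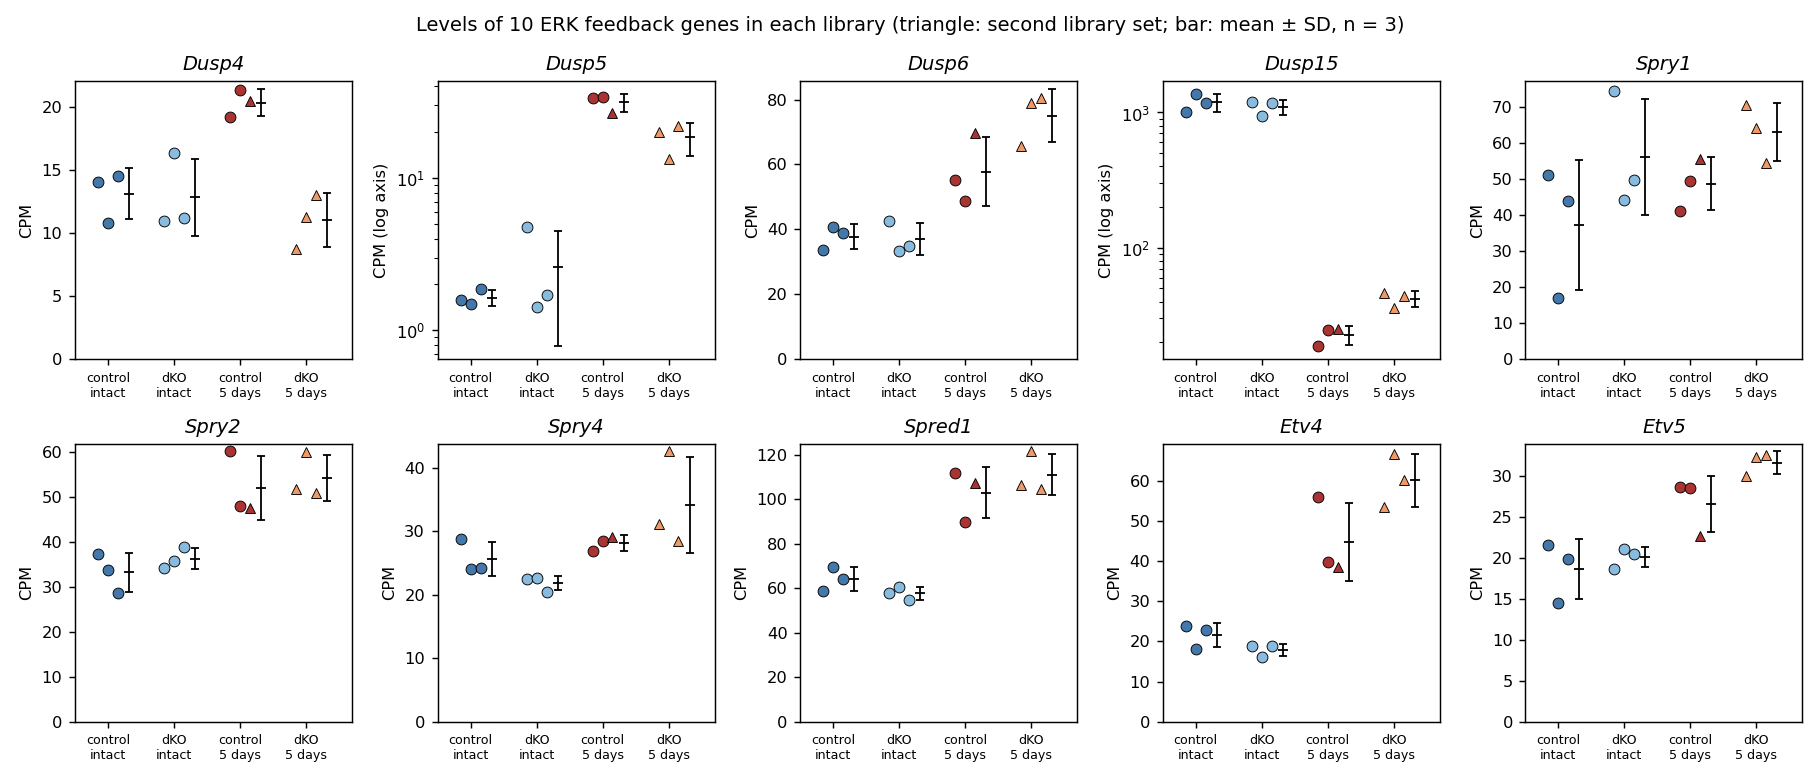
Level of each of the 10 genes in CPM (vertical axis, logarithmic for Dusp5 and Dusp15) in each library of the 4 groups (horizontal axis), with triangles for the second library set and bars for mean ± SD, n = 3. Dusp15 falls from about 1188 to 22.8 CPM in control nerve, Dusp5 rises from 1.64 to 31.6 CPM, and Dusp4 at 5 days has a mean of 20.3 CPM in control nerve, against 11.0 CPM in the dKO.

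The first comparison asked what transection did to these genes in control nerve. Of the 10 genes 7 rose and 1 fell, with a median of 0.62, and for these 8 there was no overlap between intact and injured libraries. Over all models tested 24.4% rose and 22.4% fell, with a median of 0.09, and 53.3% did not overlap. The second comparison asked the same of dKO nerve, where 7 rose and 1 fell too, with a median of 0.65 and again no overlap for 8. Over all models 22% rose and 22.6% fell, with a median of 0.05, and 61% did not overlap. With the term for the library set 5 rose and 1 fell in dKO nerve, where 9.59% of all models rose and 9.62% fell under the same term. Fewer cells of a type and less RNA per cell cannot be told apart in whole nerve, and neither can injury and the removal of the epineurium from intact nerve alone. Of 9 macrophage markers tested 8 rose in each genotype, with a sum of 201 to 271 CPM in intact and 479 to 659 CPM in injured control nerve, and of 228 to 284 and 530 to 628 CPM in the dKO. Among the 8 fibroblast markers of the list, control nerve had 4 that rose and 1 that fell (sums of 5837 to 7664 and 6013 to 9414 CPM), while 3 rose in the dKO (6004 to 6354 and 10200 to 11760 CPM). The part of these cells in the changes below was not tested.

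Among the phosphatases, Dusp5, a nuclear phosphatase specific for ERK, changed by the largest fold of those that rose. It was read at 1.57, 1.49 and 1.86 CPM in intact control nerve and at 33.8, 34.3 and 26.6 CPM at 5 days. All 3 injured libraries stood far above all 3 intact ones, a rise of 4.26 (SE 0.40, adjusted p = 1.55e-06). The dKO libraries read 4.75, 1.43 and 1.70 CPM when intact and 20.1, 13.3 and 22.1 CPM when injured. Again the groups were apart, with a rise of 2.83 (SE 0.37, adjusted p = 4.8e-05). The high intact library was dKO replicate 2, in which Egr1, an immediate early gene, also stood at 49.9 CPM against 21.4 and 23.3 CPM in the other dKO intact libraries. The difference between both rises was -1.43 (SE 0.52, adjusted p = 0.183), which did not pass. Without dKO intact replicate 2 it was -0.66, and with each of the other libraries left out between -1.24 and -1.74, none of which passed in edgeR.

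The stretch of DNA before the start of Dusp5 is shown because this gene rose by the largest fold, beside those of Dusp6, which rose less in both genotypes, and of Spry1, which passed the test in neither. The sequences are from RefSeq (GRCm38.p6), in which 6 of the 10 genes had a window of 250 bases before to 50 after the start. They are shown 5′ to 3′ along each gene's strand up to the first start that RefSeq or GENCODE gives, and capitals mark CArG boxes, the sites that serum response factor is known to bind.
Dusp5 (chr19:53528895-53529108, plus strand): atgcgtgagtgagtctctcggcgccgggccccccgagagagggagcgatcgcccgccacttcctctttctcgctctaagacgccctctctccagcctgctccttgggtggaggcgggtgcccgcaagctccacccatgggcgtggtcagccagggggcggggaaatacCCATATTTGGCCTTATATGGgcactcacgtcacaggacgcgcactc
Dusp6 (chr10:99262981-99263230, plus strand): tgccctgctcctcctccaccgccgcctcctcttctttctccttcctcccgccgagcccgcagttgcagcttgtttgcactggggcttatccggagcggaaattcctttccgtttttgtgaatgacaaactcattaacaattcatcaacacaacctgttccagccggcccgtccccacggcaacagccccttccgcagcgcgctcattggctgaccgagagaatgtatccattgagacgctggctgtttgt
Spry1 (chr3:37639697-37639946, plus strand): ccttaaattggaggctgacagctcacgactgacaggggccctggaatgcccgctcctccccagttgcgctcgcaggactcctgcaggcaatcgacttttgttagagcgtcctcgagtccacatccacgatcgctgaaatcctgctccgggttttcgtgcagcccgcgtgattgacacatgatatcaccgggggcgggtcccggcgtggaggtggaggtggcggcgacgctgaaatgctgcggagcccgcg
Both strands were searched, and the share of all 32851 windows with a match is given for each motif. CACGTG, the core that TFEB and TFE3 are known to bind, was in 7.15% of windows. The longer TCACGTGA, which holds that core and so overlaps with it, was in 0.974%. TGANTCA, the site of AP-1, was in 7.81%. The CREB site TGACGTCA was in 1.79% of windows. The ETS factor site CCGGAAGT was in 3.89%. A CArG box was in 1.63% of windows, and 0.0183% held 2 or more. In the 7 windows of the 6 genes the only matches were the pair of CArG boxes of Dusp5, at bases -82 to -73 and -72 to -63 from its RefSeq start, which lie side by side. A match is no evidence of binding, and a missing match says only that these letters are not in the window.

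Dusp6, the cytoplasmic ERK phosphatase and a widely used readout of the pathway, rose in both genotypes by less. It was read at 33.5, 40.9 and 38.8 CPM in intact control nerve and at 55.1, 48.7 and 69.6 CPM at 5 days (0.62, SE 0.14, adjusted p = 0.00278). The dKO libraries went from 42.5, 33.4 and 34.8 to 65.6, 79.1 and 80.4 CPM (1.02, SE 0.15, adjusted p = 5.54e-05). Injured libraries stood above intact ones in both genotypes. With the term for the library set the rise in dKO nerve was 0.60 and did not pass (adjusted p = 0.0854). Control replicate 4, in the second set, had the highest Dusp6 of its group at 5 days.

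Dusp4, a nuclear phosphatase of ERK and other MAP kinases, rose with injury in control nerve and did not pass in dKO nerve. It was read at 14, 10.8 and 14.5 CPM in intact and 19.2, 21.3 and 20.4 CPM in injured control nerve (0.63, SE 0.20, adjusted p = 0.0159). Without control intact replicate 2, the lowest of its group, the rise was 0.46 and did not pass (adjusted p = 0.0944). Intact dKO libraries held 10.9, 16.3 and 11.2 CPM and injured ones 8.75, 11.2 and 13 CPM (-0.23, SE 0.20, adjusted p = 0.374), and the groups overlapped. The difference between both changes was -0.86 (SE 0.28, adjusted p = 0.129) and did not pass.

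Dusp15, a small atypical phosphatase that Sox10 is known to induce in myelinating glia, went the other way. It fell from 1006, 1377 and 1182 CPM to 18.6, 24.6 and 25.0 CPM in control nerve (-5.71, SE 0.18, adjusted p = 2.3e-11). In dKO nerve it fell from 1188, 945 and 1168 CPM to 46.3, 36.0 and 44.0 CPM (-4.71, SE 0.18, adjusted p = 2.63e-10). In both genotypes the lowest intact library was over 20 times the highest injured one. The fall was smaller in dKO nerve by 1.00 (SE 0.22, adjusted p = 0.0211). That difference did not pass without control intact replicate 3 (1.00, adjusted p = 0.0519), dKO intact replicate 3 (0.90, adjusted p = 0.0657), dKO replicate 2 at 5 days (0.92, adjusted p = 0.0594) or dKO replicate 4 at 5 days (0.96, adjusted p = 0.0516), nor with the term for the library set (0.86, adjusted p = 0.259). All 10 myelin genes of the list fell in both genotypes, and their part in the fall of Dusp15 was not tested. They summed to 80090 to 105700 CPM in intact and 1138 to 1462 CPM in injured control nerve, and to 87050 to 97470 and 3905 to 4947 CPM in dKO nerve.

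Sprouty proteins and SPRED1 act on the steps between receptor and RAF. Spred1, which brings the RAS inhibitor neurofibromin to the membrane, rose in both genotypes. It was read at 58.9, 69.5 and 64.3 CPM in intact and 112, 89.9 and 107 CPM in injured control nerve (0.68, SE 0.11, adjusted p = 0.000116). Its dKO libraries went from 57.7, 60.7 and 54.9 CPM to 107, 122 and 105 CPM (0.94, SE 0.11, adjusted p = 7.65e-06). The injured libraries stood above the intact ones each time. Spry2 rose from 37.3, 33.7 and 28.6 CPM to 60.2, 48.0 and 47.6 CPM in control nerve (0.65, SE 0.13, adjusted p = 0.000813). The dKO libraries rose from 34.2, 35.7 and 38.9 CPM to 51.7, 60.0 and 50.8 CPM (0.58, SE 0.13, adjusted p = 0.00217). Its rises differed between genotypes by -0.07, with a 95% interval from -0.46 to 0.32.

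Spry4 and Spry1 did not follow them throughout. Spry4 was read at 28.7, 24.0 and 24.2 CPM in intact and 26.8, 28.5 and 29.1 CPM in injured control nerve, and the groups overlapped (0.13, SE 0.15, adjusted p = 0.487). In dKO nerve it rose from 22.4, 22.6 and 20.5 CPM to 31.1, 42.7 and 28.5 CPM (0.65, SE 0.15, adjusted p = 0.00264), a call that ended with the term for the library set (0.57, adjusted p = 0.174). The difference between both changes was 0.51 (SE 0.21, adjusted p = 0.238). Spry1 passed in neither genotype, at 0.38 (SE 0.35, adjusted p = 0.4) in control and 0.17 (SE 0.35, adjusted p = 0.719) in dKO nerve. Its intact libraries were the least alike of the 10 genes in control nerve, at 51.0, 16.9 and 43.9 CPM, with 41.0, 49.5 and 55.5 CPM at 5 days. The low library, control intact replicate 2, stood apart from the other 2 of its group in several marker lists. Fat cell markers summed to 296 CPM against 1855 and 2761, endothelial markers to 499 against 810 and 868, and perineurial markers to 1432 against 2433 and 2626 CPM. Mural cell markers (720 against 1094 and 1131), muscle markers (6.49 against 16.6 and 53.6) and red cell markers (30.6 against 46.2 and 159 CPM) were lowest there too. Schwann cell markers (3659 against 2563 and 2752) and myelin genes (105700 against 80090 and 91360 CPM) were highest. The part of these shifts in the level of Spry1, and in the calls of Dusp4 and Etv5 that rest on this library, was not tested. Without that library the change of Spry1 in control nerve was -0.01 (adjusted p = 0.965). In dKO nerve Spry1 stood at 74.3, 44.3 and 49.6 CPM in intact and 70.5, 64.0 and 54.4 CPM in injured libraries.

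The ETS factors Etv4 and Etv5 belong to the PEA3 family, whose transcription ERK is known to induce and which act on growth factor target genes. Etv4 was read at 23.9, 18.2 and 22.8 CPM in intact and 55.9, 39.7 and 38.5 CPM in injured control nerve, a rise of 1.05 (SE 0.16, adjusted p = 7.73e-05). The dKO libraries went from 18.8, 16.1 and 18.8 CPM to 53.4, 66.6 and 60.3 CPM, a rise of 1.75 (SE 0.16, adjusted p = 8.62e-07). Both rises were clear of overlap, and after Dusp5 these were the largest among the 10 genes in each genotype. The rise was 0.70 (SE 0.22) higher in dKO nerve with an adjusted p = 0.118, which did not pass. In 19 of 22 alternatives it did not pass either, the lowest value being 0.60 and the highest adjusted p 0.279. The difference passed without control intact replicate 2 (0.84, adjusted p = 0.0486) and without control replicate 1 at 5 days, the female library (0.89, adjusted p = 0.0276), and with DESeq2 over all libraries (0.74, adjusted p = 0.0486). That control library at 5 days also stood apart in red cell markers (7959 CPM against 176 and 503), lymphocyte markers (20.8 against 4.84 and 5.58) and fibroblast markers (6013 against 9401 and 9414 CPM), whose part in the level of Etv4 was not tested.

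Etv5 changed less, from 21.6, 14.5 and 19.8 CPM to 28.6, 28.5 and 22.7 CPM in control nerve (0.51, SE 0.15, adjusted p = 0.0125). Without control intact replicate 2, its lowest library, the rise was 0.30 and did not pass (adjusted p = 0.0862). In dKO nerve it rose from 18.7, 21.1 and 20.5 CPM to 30.0, 32.2 and 32.6 CPM (0.65, SE 0.15, adjusted p = 0.00293). The injured libraries stood above the intact ones in both genotypes.

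**Figure D2:**
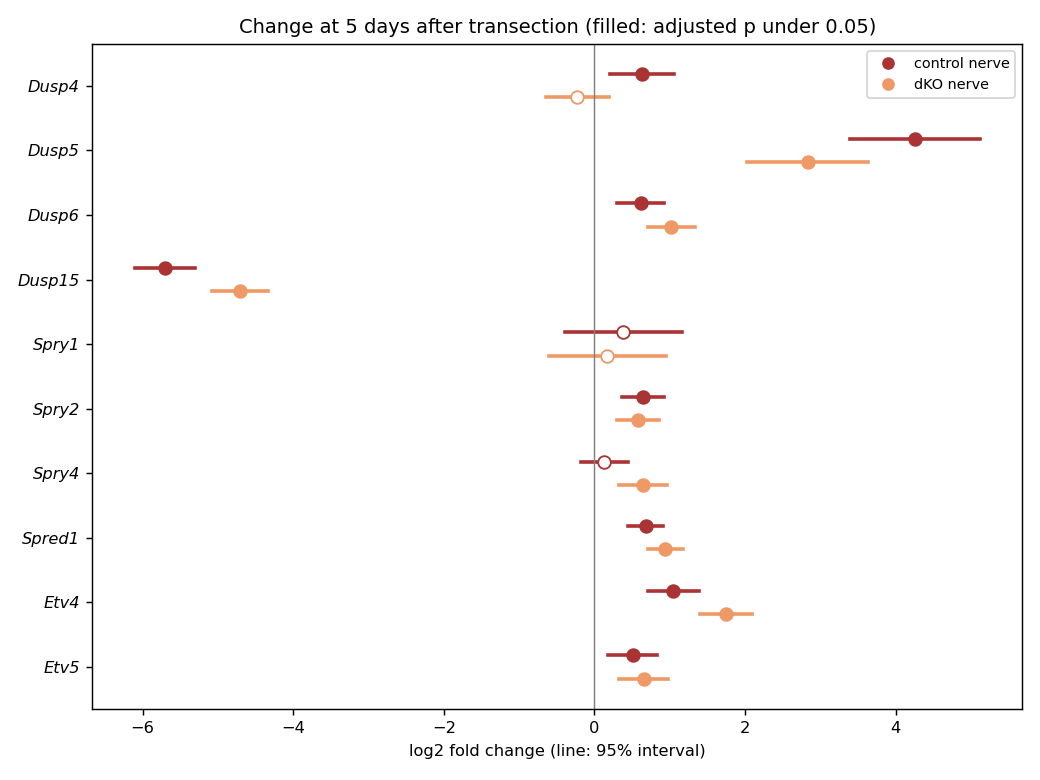
Log2 fold change from intact nerve to 5 days after transection (horizontal axis) of each of the 10 genes (vertical axis) in control and dKO nerve, with lines for the 95% interval and filled points for an adjusted p under 0.05. Dusp15 stands alone on the left at -5.71 and -4.71, Dusp5 is farthest right at 4.26 and 2.83, and Etv4 follows at 1.05 and 1.75.

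The third comparison asked whether the genotypes differed before injury. None of the 10 genes passed edgeR's test, with adjusted p between 0.879 and 0.988, and 0 of the 10 had an unadjusted p under 0.05. DESeq2 and limma-voom also called 0. Over all models 0.00447% passed and 5.8% had an unadjusted p under 0.05. Only Spry4, 1 of the 10, had control libraries that were all apart from the dKO ones, at 28.7, 24.0 and 24.2 CPM in control nerve against 22.4, 22.6 and 20.5 CPM in the dKO (-0.23, SE 0.15), where 14.5% of all models did not overlap. The 95% intervals of the 10 differences were widest for Dusp5 and Spry1, whose lower bounds were both -0.19 and whose upper bounds were the highest of the 10. The interval of Spry1 ended at 1.37, a change of over 2-fold, and that of Spred1 was narrowest, from -0.38 to 0.08.

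The fourth comparison asked how the genotypes differed at 5 days. Dusp4 was lower and Dusp15 higher in dKO nerve, and 8 of the 10 did not pass. Over all models 8.97% were lower and 3.12% higher, and 30.5% did not overlap between genotypes, against 4 of these 10. An unadjusted p under 0.05 was reached by 5 of the 10 and by 27.1% of all models. Dusp4 stood at 20.3 ± 1.09 CPM in control nerve against 11.0 ± 2.13 CPM in the dKO, with the highest dKO library (13 CPM) below the lowest control library (19.2 CPM). The difference was -0.89 (SE 0.20, adjusted p = 0.00903). Dusp15 stood at 22.8 ± 3.55 and 42.1 ± 5.41 CPM, again without overlap, a difference of 0.89 (SE 0.16, adjusted p = 0.0019). Of the 10 myelin genes 9 were higher in dKO nerve too (median 1.94). Sox10 went the other way, at 301.4 ± 84.55 CPM in control nerve and 181.5 ± 32.68 CPM in the dKO. Their part in the difference of Dusp15 was not tested. With the term for the library set Dusp4 differed by -0.90 (SE 0.27, adjusted p = 0.143) and Dusp15 by 0.75 (SE 0.23, adjusted p = 0.144) and neither passed. Both calls without that term held with each of the 12 libraries left out in turn. Against control replicate 4 alone, at 20.4 CPM of Dusp4 and 25.0 CPM of Dusp15, all 3 dKO libraries lay on the same side as against the whole group.

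Of the 8 members that did not pass at 5 days, Dusp5 had a value below 0 and the other 7 values above 0. Dusp5 stood at 31.6 ± 4.31 CPM in control nerve against 18.5 ± 4.61 CPM in the dKO, and the lowest control library (26.6 CPM) was above the highest dKO library (22.1 CPM). The difference of -0.77 (SE 0.34, adjusted p = 0.159) did not pass, but passed without dKO intact replicate 2 (-0.73, adjusted p = 0.0317), a library of neither group compared, with only the compared groups in the fit (-0.74, adjusted p = 0.0367) and with limma-voom (-0.86, adjusted p = 0.00996). Its value was -0.53 with the term for the library set (adjusted p = 0.771). Etv4 stood at 44.7 ± 9.68 and 60.1 ± 6.62 CPM (0.43, SE 0.16, adjusted p = 0.0914). The highest control library, the female replicate 1 at 55.9 CPM, overlapped with dKO replicate 2 at 53.4 CPM, and without it Etv4 passed (0.62, adjusted p = 0.0177). It also passed without control intact replicate 2 (0.46, adjusted p = 0.042), with DESeq2 (0.45, adjusted p = 0.0482) and with upper-quartile scaling (0.54, adjusted p = 0.0289). In the other 19 of 23 alternatives Etv4 did not pass, the lowest value being 0.32 and the highest adjusted p 0.282. The library set as a term gave 0.64 (adjusted p = 0.207). Dusp6 stood at 57.8 ± 10.7 and 75.0 ± 8.16 CPM (0.38, SE 0.14, adjusted p = 0.105). Without control replicate 4, the control library of the second set, it passed (0.52, adjusted p = 0.0238), while with the term for that set the difference was 0.11 (adjusted p = 0.903).

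Etv5 stood at 26.6 ± 3.42 and 31.6 ± 1.40 CPM and did not overlap between genotypes, with a difference of 0.25 (SE 0.15, adjusted p = 0.311), or 0.48 with the term for the library set (adjusted p = 0.357). Without control replicate 4 it was 0.14 (adjusted p = 0.574). Spry4 stood at 28.2 ± 1.20 and 34.1 ± 7.55 CPM, of which dKO replicate 3 alone reached 42.7 CPM (0.28, SE 0.15, adjusted p = 0.239). Without that library the difference was 0.08 (adjusted p = 0.773). Spry1 differed by 0.37 (95% interval -0.40 to 1.15), Spred1 by 0.11 (-0.12 to 0.34) and Spry2 by 0.06 (-0.21 to 0.34). The value of Spred1 was 0.01 without control replicate 2 and 0.04 without dKO replicate 3. Of these 3 intervals that of Spry1 alone reached past 2-fold. Schwann cell markers were lower at the same time: the 8 of that list summed to 2859 to 4162 CPM in control nerve against 1621 to 1785 CPM in the dKO, and 5 of the 8 passed, all lower. Cell division markers summed to 534 to 706 CPM in control nerve against 200 to 263 CPM in the dKO, with all 6 of the list lower. Other lists stood higher in dKO nerve: endothelial markers summed to 523 to 610 CPM against 708 to 978 (median difference of the list 0.53, no gene called), and fibroblast markers to 6013 to 9414 CPM against 10200 to 11760, with 1 of 8 higher. Mural cell markers ranged over 672 to 866 CPM in control libraries and 808 to 2712 in the dKO, with dKO replicate 2 at 2712 CPM, and 1 of 8 was higher. The part of these shifts in the genotype differences of the 10 genes was not tested.

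**Figure D3:**
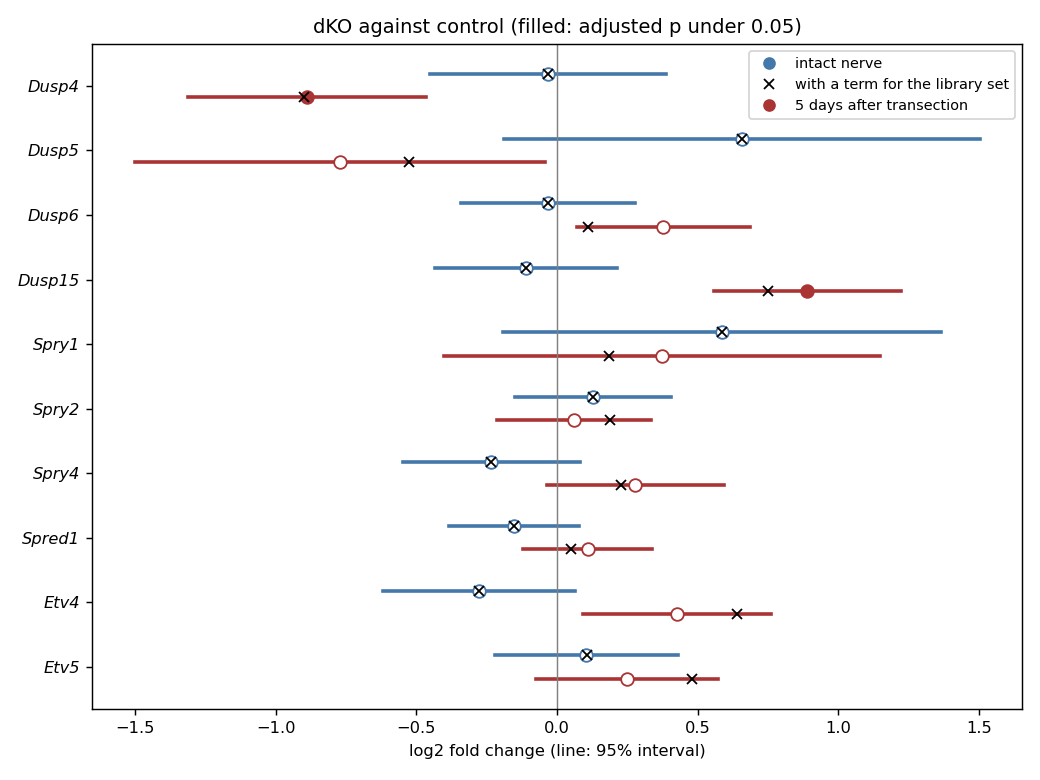
Log2 fold change of dKO against control nerve (horizontal axis) of each of the 10 genes (vertical axis), intact and at 5 days, with lines for the 95% interval, filled points for an adjusted p under 0.05 and crosses for the value with a term for the second library set. Only Dusp4 (-0.89) and Dusp15 (0.89) at 5 days are filled. The cross moves most for Dusp6, from 0.38 to 0.11, and does not move in intact nerve.

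The last comparison asked whether the change with injury differed between genotypes. Of the 10 genes 1 passed, Dusp15, whose fall was smaller in dKO nerve. Over all models 0.737% were higher and 2.17% lower in this sense. Dusp4 (-0.86), Dusp5 (-1.43), Spry4 (0.51) and Etv4 (0.70) had an unadjusted p under 0.05 and did not pass after adjustment (adjusted p between 0.118 and 0.238). Together with Dusp15 these are 5 of the 10, where 15.8% of all models had an unadjusted p under 0.05. This comparison uses the same injured control and dKO libraries as the one at 5 days, so neither supports the other.

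Across the 12 libraries Dusp6, Spry2, Spred1, Etv4 and Etv5 went together, with Pearson r of log2 CPM between 0.735 and 0.944 in their pairs. Dusp5 had r of 0.781 to 0.879 with these 5, Spry4 0.696 to 0.804 and Dusp15 -0.832 to -0.94. Spry1 had r of at most 0.581 with any of the 10, and Dusp4 of at most 0.343. All these points share the split between intact and injured nerve, so the values are a description. The models most like Dusp15 were Serpind1, Kazn and Jam3 (r of 0.997 each), and those most like Dusp5 were Pfkp (0.991), Tnfrsf12a (0.99) and Slc35e4 (0.989). Etv4 was most like Cdc20b (0.987), Gpx8 (0.986) and Crabp2 (0.98), Spred1 like Serinc5 (0.971), Fbn2 (0.97) and Cspg5 (0.967), and Etv5 like Bicc1 (0.968), Nrp1 (0.967) and Pbx2 (0.966). Dusp4 was most like Fam32a (0.969), Ano8 (0.922) and Nup205 (0.9). Spry1 was most like Adam15 (0.967), Ifitm2 (0.964) and Sulf2 (0.962), Spry2 like Alpl (0.962), Neurl2 (0.954) and AB124611 (0.953), and Spry4 like Ctnnd2 (0.927), Sec13 (0.925) and Capn6 (0.907). Dusp6 was most like Grm7 (0.973) and Serpinh1 (0.951), the third model bearing a name that a spreadsheet had turned into a date.

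The rest of the pathway was read from lists of 69 genes. Their counts stand beside the shares over all models, where 24.4% rose and 22.4% fell with injury in control nerve. In dKO nerve these shares were 22% and 22.6%. Of 7 other DUSP phosphatases of MAP kinases 3 rose with injury in control nerve and 2 fell, against 2 and 1 in dKO nerve. Dusp10, which acts mainly on the stress kinases JNK and p38, rose from 3.24 ± 0.722 to 66.4 ± 2.87 CPM in control nerve (4.35, SE 0.24, adjusted p = 3.27e-09). In the dKO it rose from 3.66 ± 1.25 to 12.8 ± 1.35 CPM (1.81, SE 0.22, adjusted p = 1.46e-05). At 5 days it was lower in dKO nerve by -2.38 (SE 0.22, adjusted p = 8.57e-06), and the rises differed by -2.55 (SE 0.31, adjusted p = 0.000447). Both calls held with the term for the library set (-2.36, adjusted p = 0.000674, and -2.52, adjusted p = 0.0065). Dusp16 fell in control nerve (-0.74). It did not pass in dKO nerve (-0.30), except without control intact replicate 2 (-0.33, adjusted p = 0.0492) or dKO intact replicate 2 (-0.43, adjusted p = 0.0376). Dusp1, an immediate early gene, stood at 0.55 and -0.29 and Dusp7 at 0.11 and -0.12, all without passing.

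Of 13 other inhibitors tested 3 rose and 9 fell in control nerve (median -0.51), while 2 rose and 6 fell in the dKO (median -0.36). The relatives of Spred1 were among those that rose: Spred2 by 0.71 in control and 0.56 in dKO nerve, and Spred3 by 1.02 and 0.68. Errfi1, a feedback inhibitor of EGF receptors, fell by 1.58 and 1.48. Il17rd, an antagonist of FGF signalling, fell in control nerve (-0.87) and did not pass in dKO nerve (-0.39). There it passed without control intact replicate 2 (-0.42, adjusted p = 0.0382) or control replicate 1 at 5 days (-0.40, adjusted p = 0.0392), and with DESeq2, limma-voom or only the compared groups. Nf1, which encodes neurofibromin, fell in control nerve (-0.60) and stood at -0.23 in dKO nerve. Of the 23 tested genes of the core cascade 5 rose and 11 fell in control nerve, and 2 rose and 12 fell in the dKO. Braf fell by 1.25 and 1.29 and Mapk3, which encodes a form of the kinase ERK, by 0.98 and 1.46. Map2k1, which encodes a form of the kinase MEK, rose by 0.36 in control nerve (adjusted p = 0.00466) and stood at -0.09 in dKO nerve. Without control intact replicate 1 its rise in control nerve did not pass (0.26, adjusted p = 0.0619).

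Of 14 other ERK targets tested 10 rose and 3 fell in control nerve (median 1.05), while 9 rose and 2 fell in the dKO (median 0.87). Ccnd1, which encodes cyclin D1, rose by 2.47 and 1.92 and Myc by 1.94 and 1.26. Myc lost its call in dKO nerve with the term for the library set (1.70, adjusted p = 0.0579). Phlda1 rose by 0.75 in control nerve and stood at 0.12 in dKO nerve. Egr1 rose by 1.20 in control nerve (adjusted p = 0.0191), which did not pass without control intact replicate 1 (1.20, adjusted p = 0.053), 2 (1.04, adjusted p = 0.0865) or 3 (1.22, adjusted p = 0.0536) or without control replicate 1 at 5 days (1.02, adjusted p = 0.0763). In dKO nerve it stood at 0.86 (adjusted p = 0.0731), and it passed there without dKO intact replicate 2 (1.32, adjusted p = 0.00329) or dKO replicate 3 at 5 days (1.06, adjusted p = 0.0438), and with DESeq2 or upper-quartile scaling. Of 8 other ETS factors and repressors 4 rose and 2 fell in control nerve, against 3 and 1 in the dKO. Ets2 fell in both (-0.56 and -0.50), the second without a call once the library set had a term (-0.54, adjusted p = 0.163). Etv1, the remaining member of the PEA3 family, stood at -0.22 and -0.07 without passing, and Cic, a repressor of Etv4 and Etv5 that ERK is known to switch off, rose in control nerve (0.48) and stood at -0.25 in dKO nerve. For Cic the difference of these changes passed (-0.73, adjusted p = 0.0266). It did not pass with the term for the library set (-0.59, adjusted p = 0.271) or upper-quartile scaling (-0.60, adjusted p = 0.06), nor without any 1 of 7 libraries, at -0.58 to -0.76 with adjusted p between 0.0545 and 0.0951: control intact replicates 1 and 3, dKO intact replicates 2 and 3, and at 5 days control replicate 1 and dKO replicates 3 and 4.

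At 5 days Hbegf, an EGF receptor ligand, and Dusp10 differed most among the 20 named genes of these lists. It fell from 107 ± 9.75 to 33.1 ± 5.29 CPM in control nerve (-1.69, SE 0.13, adjusted p = 9.31e-08) and rose from 94.5 ± 7.26 to 172 ± 17.8 CPM in dKO nerve (0.87, SE 0.13, adjusted p = 7.15e-05). The difference at 5 days was 2.38 (SE 0.13, adjusted p = 1.22e-07) and that of the injury changes 2.56 (SE 0.18, adjusted p = 4.25e-06), and both held with the term for the library set (2.67, adjusted p = 1.36e-05, and 2.85, adjusted p = 3.36e-05). Ccnd1 (-0.69, adjusted p = 0.00153), Phlda1 (-0.62, adjusted p = 0.00745), Map2k1 (-0.42, adjusted p = 0.00756), Mapk3 (-0.44, adjusted p = 0.0141) and Cic (-0.48, adjusted p = 0.0141) were lower in dKO nerve at 5 days. With the term for the library set none of these 5 passed in edgeR, at -0.51, -0.34, -0.33, -0.30 and -0.35 (adjusted p = 0.117, 0.42, 0.238, 0.393 and 0.381). Mapk3 also did not pass with upper-quartile scaling (-0.33, adjusted p = 0.0538) or without control replicate 1 (-0.38, adjusted p = 0.0584) or dKO replicate 3 at 5 days (-0.40, adjusted p = 0.0712), nor did Cic without either library (-0.38, adjusted p = 0.0654, and -0.49, adjusted p = 0.0505).

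**Figure D4:**
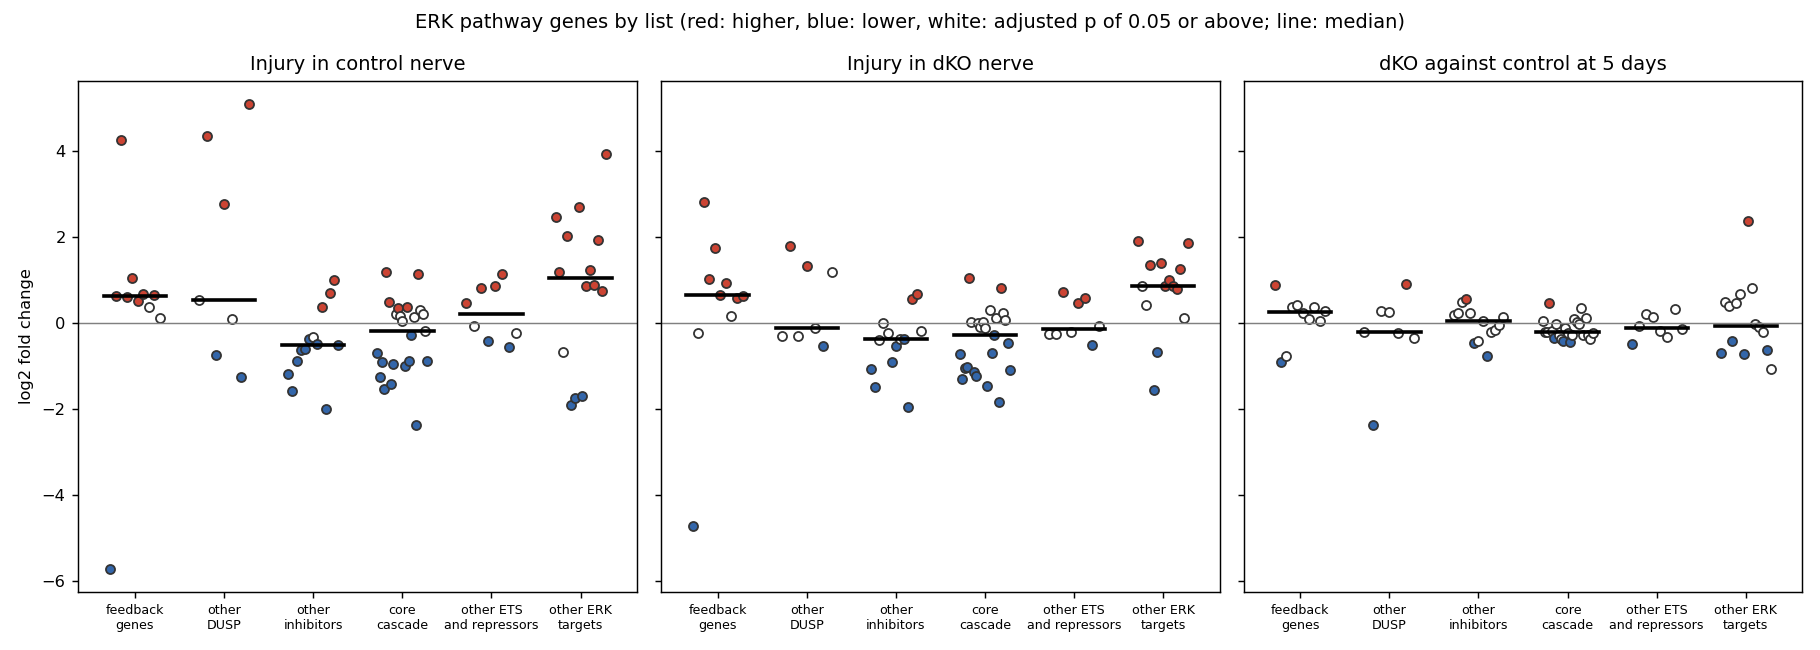
Log2 fold change (vertical axis) of each tested gene of the 6 lists (horizontal axis) with injury in control nerve, with injury in dKO nerve and between genotypes at 5 days, colored by call, with a line at each median. The feedback genes have medians of 0.62, 0.65 and 0.26 and the core cascade -0.19, -0.28 and -0.21.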

How the data were processed

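Poly(A) RNA of 12 sciatic nerve libraries was made into libraries with an Ion Torrent total RNA kit, per the labels' protocols. Reads were mapped to mm10 and values scaled with DESeq2 in R 4.2.1, per the submitters' processing notes. No source used here names the aligner, the counter, the strand or the annotation. The first deposited table holds raw counts per gene symbol. The second deposited table holds a signal, those counts divided by 1 size factor per library.

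The main test was that of edgeR 4.0.16, run in R 4.3.3 on the counts (filterByExpr, minimum count 10, TMM, robust quasi-likelihood, 1 mean per group, all 12 libraries). CPM used the whole library and its TMM factor. Alternatives were DESeq2 1.42.0, limma-voom and limma-trend (limma 3.58.1; log2 of the authors' value plus 1), other scaling, filters and thresholds, only the compared groups, the library set, the replicate numbers and each library left out. Replicate pairs within a group differed by a chi-square of 20.2 to 86.3 per model over models with a mean count of at least 50, far beyond counting noise. Where nothing says that libraries came from separate mice, p-values measure the spread between libraries.

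Members, lists and the library set were chosen with earlier results of these data known. Named genes were all members, 20 genes of the other lists named whatever their values (1 further gene of that rule is not reported here), and the 3 models most like each member by Pearson r among models whose mean log2 CPM reached 3, predicted models left out. Of the 20, values outside the injury comparisons are given only where they passed. Exon lengths were from GENCODE M21 (GRCm38). GENCODE places other models over Dusp5, Spry1 and Spry4 on the opposite strand, and without the strand their reads cannot be told apart.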

Additional observations from a re-analysis of the deposited data

Results flagged for a closer look

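The change of Dusp15 with injury differed between genotypes by the test of the difference itself, at 1.00 on the log2 scale (dKO minus control), with changes of -5.71 in control and -4.71 in dKO nerve (edgeR, adjusted p = 0.0211). The call was lost with the term for the library set (0.86, adjusted p = 0.259), at a threshold of 0.01, and without any 1 of 4 libraries: control intact replicate 3, dKO intact replicate 3, and dKO replicates 2 and 4 at 5 days (adjusted p between 0.0516 and 0.0657).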

How the results depend on the processing

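The counts of the 10 genes called with injury stayed within 1.5 times of the main counts under every alternative run. At 5 days 1 gene was higher and 1 lower in dKO nerve. With DESeq2 or upper-quartile scaling 2 were higher (5.66% and 4.8% of all models), with limma-voom or only the compared groups 2 were lower (10% and 6.45%), and with the term for the library set 0 were higher and 0 lower (0.648% and 1.65%). With each library left out between 1 and 2 were higher (1.69% to 6.19% of all models) and between 1 and 2 lower (5.16% to 12.2%). For the difference of injury changes 1 gene was higher, with 2 by DESeq2 (1.6% of all models), 0 with the term for the library set (0.335%), 0 at a threshold of 0.01 (0.362%) and 0 to 2 with each library left out. In these fits with a library left out, 0.444% to 1.6% of all models were higher in that comparison. The causes were not tested. With the replicate number as a block no count of the 10 genes in any comparison moved by over 1.5 times, and of the other named genes Map2k1 (-0.415), Mapk3 (-0.412), Cic (-0.423) and Phlda1 (-0.497) between genotypes at 5 days and Egr1 (1.02) with injury in control nerve did not pass. Of 13 pairs of libraries from different groups with the same number, 1 had deviations that correlated by over 0.1 (median r = -0.02). Of 41 pairs with other numbers, 5 did. The 13 include pairs of a control and a dKO library, which cannot come from 1 mouse. Between intact and injured nerve of the same genotype, r was -0.0895 and -0.00496 in control nerve (numbers 1 and 2). In dKO nerve it was 0.118, 0.1 and -0.0131 (numbers 2, 3 and 4). Number 1 of control nerve had 3 counts of Xist and 3068 of Y-linked genes when intact, against 10712 and 244 at 5 days. That number therefore does not pair nerves of 1 mouse. For the other numbers the values of r cannot decide whether they pair the samples, and the main test did not pair any.

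Of 1140 values of members under alternatives, 1095 kept their direction and side of the threshold, 14 lost and 11 gained a call, and 20 changed sign, all of them in values that had not passed. With the term for the library set Spry1 in dKO injury was -0.12 and the Spry2 difference of injury changes 0.058, the latter being 0.0646 with upper-quartile factors. With libraries left out the changes that crossed 0 ran from -0.25 to 0.0712 for Dusp4, -0.071 to 0.96 for Dusp5, -0.147 to 0.0437 for Dusp6, -0.237 to 0.023 for Dusp15 and -0.03 to 0.209 for Etv5 between intact genotypes, from -0.0211 to 0.176 for Spry2 between genotypes at 5 days, from -0.0134 to 0.605 for Spry1 with injury in control nerve, and from -0.466 to 0.153 for Spry1 and -0.15 to 0.0476 for Spry2 in the difference of injury changes. Of 1147 values of other named genes 9 changed sign. Dusp7 with injury in control nerve ran from -0.0638 to 0.205 with libraries left out. In dKO injury upper-quartile factors gave Dusp7 0.0244, Map2k1 0.0498 and Etv1 0.0721, and the library set Dusp7 0.18, Map2k1 0.04 and Etv1 0.563, while with libraries left out Dusp1 ran from -0.655 to 0.136 and Etv1 from -0.141 to 0.0312. Upper-quartile factors moved the median of all models by 0.14 in dKO injury, 0.11 between genotypes at 5 days and 0.13 in the difference of injury changes.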
